A study of Mus musculus with 11 samples.

Results

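The genes described here encode proteins of the chemical synapse. They were picked by name, with earlier results of these data known but no threshold on any measured value, and fall into 4 groups by role. There are 16 genes of the synaptic vesicle and its release machinery, 5 of the active zone, 5 of trans-synaptic adhesion, and 12 of receptors and their scaffolds, 38 in all of the 20475 genes listed in each table. The vesicle genes were the synaptotagmins Syt1, Syt4 and Syt11, the SNARE genes Snap25, Stx1a and Vamp2, the vesicle proteins Syp and Sv2a, the synapsins Syn1 and Syn2, the GTPases Rab3a and Rab3c, the complexins Cplx1 and Cplx2, and the transmitter transporters Slc17a6 and Slc32a1. The active zone genes were Unc13a, Rims1, Rims2, Bsn and Pclo, and the adhesion genes were Nrxn2, Nrxn3, Nlgn1, Nlgn2 and Nlgn3. The last group held the glutamate receptor genes Gria1, Gria2, Gria4, Grin1 and Grin2b, the inhibitory receptor genes Gabra2 and Glra2, and the scaffold genes Dlg2, Dlg4, Shank1, Shank2 and Homer1. All 38 genes were listed in both tables and passed the filter of a mean of at least 10 normalized counts. Their RNA was measured by poly(A) RNA-seq at E12.5 in 2 comparisons that ask what loss of Kif20a, a mitotic kinesin of neural progenitor cells, does to gene expression in the developing brain. The germline wild-type group held 3 libraries, and the germline knockout group held 3 libraries from embryos homozygous for a knockout-first allele, in which a LacZ and neomycin resistance cassette interrupts Kif20a in every cell. The inducible knockout group held 3 libraries from Nestin-CreERT2; Kif20a fl/fl embryos. The inducible wild-type group held 2 libraries, labelled Wild Type, and the study's methods describe such controls as Kif20a fl/fl littermates without Cre. The mothers of the inducible litters received tamoxifen on E9.5 and again on E10.5, so both inducible groups were exposed to it. CreERT2 was driven by Nestin, a gene of neural progenitors, so cells that never expressed it kept their floxed alleles. The labels name the tissue forebrain and the study names it cortex. Whether a library came from 1 embryo or from a pool is not given in the sources used here, so P values measure only the spread between libraries.

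At a chemical synapse an arriving calcium signal makes vesicles filled with transmitter fuse with the presynaptic membrane. Synaptotagmins sense the calcium, SNARE proteins fuse the membranes, and complexins, synapsins and Rab3 proteins control how vesicles are held and released. Active zone proteins dock vesicles opposite the receptors, neurexins and neuroligins hold both membranes together, and scaffolds anchor the glutamate, GABA and glycine receptors on the receiving side. In the mouse forebrain at this stage most cells are progenitors and the first neurons have only begun to differentiate, so many of these genes are expressed in young neurons before synapses have formed. A well known repressor of neuronal genes in other cells, REST, binds a sequence called RE1.

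The core of RE1 was searched for because it is a sequence that several synaptic genes are known to carry, and 5 of the 7 matches are shown to give the reader the letters themselves. The search used the letters CAGCACC, any 2 bases, then GGACAG, on both strands of the mm9 genome, inside each gene and within 5000 bases of it. Of the 38 genes, 6 (15.8%) held a match, namely Snap25, Syp, Syt4, Grin1, Shank1 and Shank2, against 378 of 19022 protein-coding genes in the tables (1.99%). The synaptic genes were also longer, with a median gene length of 91.0 kb against 17.7 kb, and the part of length in this share was not tested. A match is a string of letters and not a measured binding site. Capitals mark the core, and each sequence is written 5′ to 3′ on the strand of the match.

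Snap25, intron, chr2:136540019-136540047 (mm9, plus strand): gggagctCAGCACCCTGGACAGgagtgct
Snap25, intron, chr2:136540069-136540097 (mm9, plus strand): gacctttCAGCACCGCGGACAGcgatccg
Syp, coding exon, chrX:7215858-7215886 (mm9, plus strand): cgcgctcCAGCACCGTGGACAGagcccgg
Shank1, intron, chr7:51591168-51591196 (mm9, minus strand): gaggctcCAGCACCGCGGACAGctccaga
Shank2, intron, chr7:151480357-151480385 (mm9, minus strand): cccgtttCAGCACCATGGACAGaggaaac

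The matches of Grin1 and Syt4, in annotated UTRs 155 and 219 bases into their genes, are not printed. Both Snap25 matches lay close to its start, 837 and 887 bases into the gene. The Syp match lay 268 bases into its gene, whereas those of Shank1 and Shank2 lay deep inside, at 25552 and 292531 bases.

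Kif20a itself checked the labels. Germline wild-type libraries held 2456, 2295 and 2680.2 normalized counts of it, against 409, 374 and 503 for the germline knockouts (log2 fold change −2.54, SE 0.15, adjusted p = 0.00845 from limma). Inducible wild-type libraries held 4760.2 and 4844, against 3125, 2915 and 2853 for the inducible knockouts (log2 fold change −0.70, SE 0.057, adjusted p = 0.0107 from limma). The groups did not overlap in either comparison, although 32.3% of the exon bases of Kif20a are shared with Cdc23. After the authors' normalization the libraries summed to 13048700 to 15551300 normalized counts for the germline and 24118500 to 24497300 for the inducible table, sums that no longer show sequencing depth. In the germline comparison, knockout replicate 2 stood apart. Its mesenchyme markers summed to 599.7 normalized counts against 5058 to 8947 in the wild-type libraries (10 markers), and its microglia markers to 19.9 against 431 to 688 (8 markers); of these, 1 mesenchyme marker was at 0. Knockouts 1 and 3 lay on the other side for mesenchyme markers, with sums of 21725 and 10965, and at 497 and 518 for microglia markers. The sex of the embryos is not in the labels. The summed counts of 4 Y-linked genes came to 1.96 and 4.24 for the inducible wild-type libraries but to between 2389 and 3209 for all 3 inducible knockouts, so in that comparison genotype and sex cannot be told apart.

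Per kilobase of exon, the level of the synaptic genes in the germline wild-type libraries ran from 821 ± 67.2 normalized counts per kb for Syt11 (SD, n = 3), a synaptotagmin also found outside synaptic vesicles, to 6.24 ± 1.65 for Grin1, the obligatory NMDA receptor subunit. Exon lengths came from the GENCODE annotation of mm9 and not from the RefSeq exons the authors counted, so these levels are approximate. Behind Syt11 stood Gria2, the AMPA receptor subunit that limits calcium entry, at 450.1 ± 198, and Cplx2, a complexin, at 355 ± 38.5. These neighbours overlapped within their spread, whereas the Syt11 libraries lay above all 3 Gria2 libraries. Among AMPA receptor subunits, Gria4 (71.1 ± 17.1) and Gria1 (67.2 ± 26.5) did not differ beyond their spread and lay under Gria2. The NMDA receptor subunit gene Grin2b stood at 30.3 ± 17.2. Slc17a6, which loads glutamate into vesicles, stood at 287 ± 19.3, and Slc32a1, which loads GABA and glycine, at 51.4 ± 13.5. The lowest levels after Grin1 belonged to Rims1, an active zone scaffold, at 12.2 ± 2.99 per kb.

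**Figure D1:**
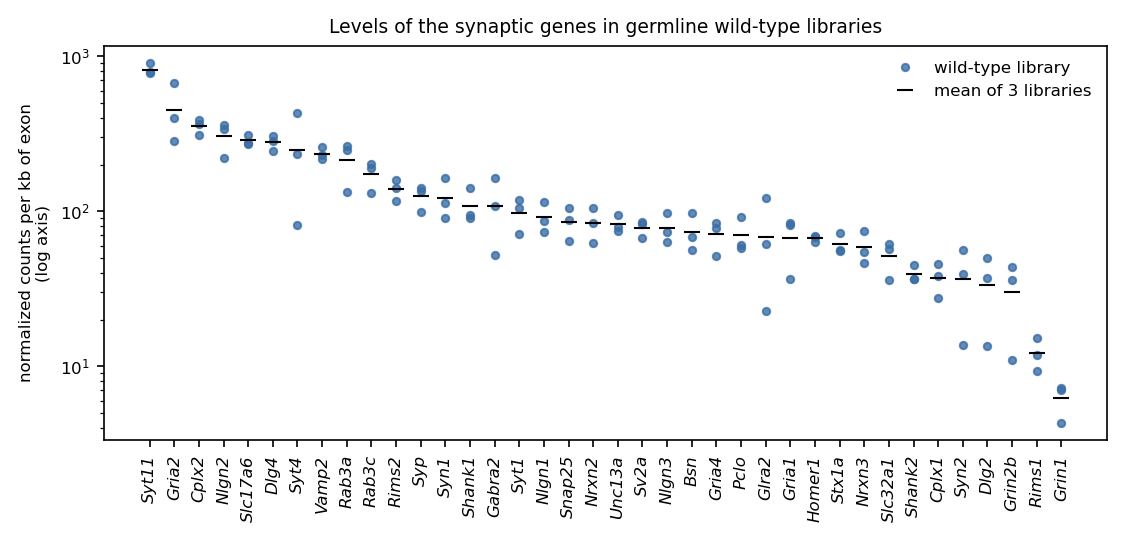
Normalized counts per kilobase of exon (log axis) of the 38 synaptic genes in the 3 germline wild-type libraries, ordered by their mean (black line). Syt11 stood highest at a mean of 821 and Grin1 lowest at 6.24, and the points of Syt4, Glra2, Syn2 and Grin2b were spread most widely.

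In the germline comparison no synaptic gene was called. A call needed a 1.5-fold difference together with an unadjusted limma P no greater than 0.05. By that rule 0 of 38 genes were lower and 0 higher, where 0.667% of all 13938 genes tested were lower and 2.07% higher. The number with an unadjusted P no greater than 0.05 was 0 as well, where 5.39% of all genes tested had one. The smallest limma adjusted p among them was 0.779, where 0.00717% of all genes tested had one under 0.05. For 0 of 38 genes did the knockout and wild-type libraries fail to overlap, against 7.55% of all genes lower and 5.9% higher without overlap. The median log2 fold change of the 38 genes was −0.23, with 28 genes negative and 10 positive, beside −0.043 over all genes tested. By role, the median was −0.26 for the vesicle genes, 0.10 for the active zone genes, −0.035 for the adhesion genes and −0.36 for the receptor and scaffold genes. Behind these medians lay germline knockout libraries that disagreed with each other more than they differed, on average, from the wild-type.

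The median deviation of the 38 genes from the wild-type mean was −0.72 in knockout replicate 1, 0.99 in knockout replicate 2 and −0.58 in knockout replicate 3, on the log2 scale. The wild-type libraries themselves lay at 0.065, 0.21 and −0.23. Knockout replicate 2 was the highest of all 6 libraries for 35 of the 38 genes, against 33.8% of all genes tested, and it exceeded the wild-type mean for all 38. Knockout replicate 1 was the lowest of all libraries for 25 genes (21.0% of all genes tested) and knockout replicate 3 for 10 (12.2%). For 26 of the 38 genes, or 68.4%, knockout replicate 2 lay above and the other knockouts below every wild-type library, an order held by 8.47% of all genes tested. These orders were chosen for counting after the values had been seen.

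**Figure D2:**
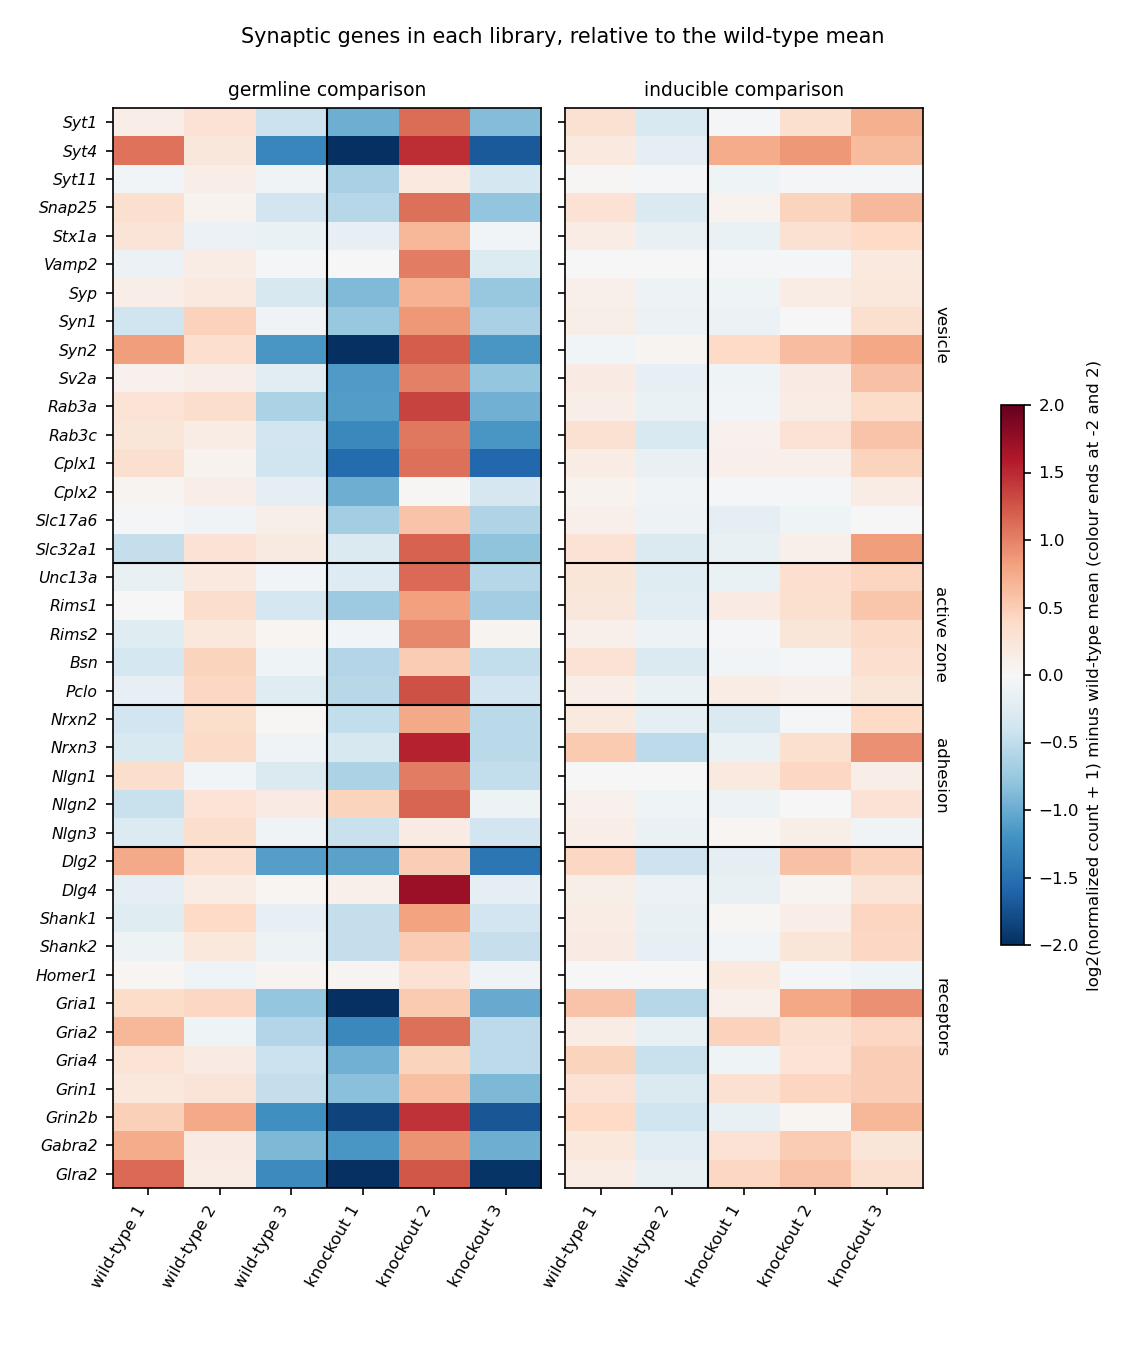
Log2(normalized count + 1) of each of the 38 synaptic genes (rows, by role) in each library (columns), minus the mean of the wild-type libraries of the same comparison, with colours ending at −2 and 2. In the germline panel knockout replicate 2 is red for all 38 genes while knockouts 1 and 3 are mostly blue. In the inducible panel the colours are paler and knockout replicate 3 is the highest library for 28 of 38 genes.

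The germline spread was wide among the wild-type libraries as well. The ratio of the highest to the lowest library had a median of 1.62 within the wild-type and 3.19 within the knockout libraries for the synaptic genes, against 1.27 and 1.499 for all genes tested. Within the wild-type group the widest ratios belonged to Glra2 (5.38), Syt4 (5.27), Syn2 (4.06), Grin2b (3.99) and Dlg2 (3.66). Of these, the first 4 also had the widest ratios within the knockouts, at 27.6 for Glra2, 12.3 for Syt4, 10.01 for Grin2b and 9.48 for Syn2. At the other end, Homer1, a postsynaptic scaffold, varied by 1.10 within the wild-type and 1.28 within the knockouts.

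Among the vesicle genes, Syt4, a synaptotagmin of dense-core and other vesicles that lacks normal calcium binding, held 1671, 916 and 317 normalized counts in wild-type against 178, 2180.2 and 245 in knockout libraries of the germline table. The groups overlapped fully, since the highest and the lowest value both came from knockouts (log2 fold change −0.78, SE 1.01, limma adjusted p = 0.865). Syn2, a synapsin that tethers vesicles, stood at 319.6, 225 and 78.7 against 43.7, 414 and 79.4 (−0.65, SE 0.87). Cplx1, a complexin that clamps and assists SNARE fusion, stood at 101, 84.3 and 60.2 against 26.9, 174 and 26.1 (−0.67, SE 0.72). In all these genes knockout replicate 2 was the highest library, and the knockouts 1 and 3 lay near or under the lowest wild-type value. The other 13 vesicle genes had log2 fold changes between −0.46 for Rab3c, a small GTPase of vesicles, and 0.24 for Vamp2, the vesicle SNARE. Knockout replicate 2 was the highest library for 15 of the 16 vesicle genes, and for 11 of the 16 the other knockouts also lay below every wild-type library. The exception was Cplx2, for which wild-type replicate 2 was highest.

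Of the active zone genes, Unc13a, which primes vesicles for fusion, stood at 640.4, 815 and 682 in wild-type against 594, 1549 and 476 in knockout libraries (log2 fold change 0.10, SE 0.42). Rims1 stood at 86.5, 111 and 68.0 against 51.8, 154 and 53.3 (−0.20, SE 0.46). Rims2, its relative, stood at 627, 858 and 758 against 717, 1452 and 771 (0.32, SE 0.28). Knockout replicate 2 was again the highest library for all 5 active zone genes, and for Rims2 the other knockouts lay within the wild-type range. Bsn and Pclo, the large scaffolds bassoon and piccolo, had log2 fold changes of −0.19 and 0.11.

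Of the adhesion genes, Nrxn3, a presynaptic neurexin, stood at 589, 944 and 692 in wild-type against 581, 2124 and 501 in knockout libraries (log2 fold change 0.23, SE 0.53). Nlgn1, the neuroligin of excitatory synapses, stood at 502, 379 and 322 against 254, 798 and 280.3 (−0.035, SE 0.44). Nlgn2, the neuroligin of inhibitory synapses, stood at 1277, 2089 and 1953 against 2360.4, 3888 and 1615 (0.50, SE 0.34). Nlgn2 differed from the other adhesion genes in that knockout replicate 1 also lay above every wild-type library, and without knockout replicate 3 it was called higher (0.81, SE 0.30). Nrxn2 and Nlgn3 had log2 fold changes of −0.092 and −0.23.

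Over all 6 germline libraries the ratio of the highest to the lowest had a median of 3.99 for the receptor and scaffold genes and 3.82 for the vesicle genes. Glra2, the glycine receptor subunit of the embryonic brain, stood at 385, 193 and 71.6 in wild-type against 15.0, 414 and 44.2 in knockout libraries (log2 fold change −1.39, SE 1.18, limma adjusted p = 0.814). Gria1, an AMPA receptor subunit, stood at 492, 505 and 222 against 83.2, 548 and 188 (−0.89, SE 0.67, limma adjusted p = 0.799). Both had the 2 lowest values in knockouts 1 and 3 and the highest in knockout 2. The other receptor genes had log2 fold changes from −0.70 for Grin2b to −0.24 for Gria2. The scaffold genes ran from −0.68 (SE 0.63) for Dlg2, of the PSD-95 family, over −0.14 for Shank2, −0.019 for Shank1 and 0.093 for Homer1, to 0.55 (SE 0.47) for Dlg4, which encodes PSD-95.

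Leaving out knockout replicate 2 turned these values into calls. Without it 21 of 38 genes were lower at both thresholds and 0 higher, against 4.58% of all 14008 genes then tested that were lower, and the median log2 fold change became −0.67. The calls fell in 12 of 16 vesicle genes, 1 of 5 active zone genes, 0 of 5 adhesion genes and 8 of 12 receptor and scaffold genes. The largest log2 fold changes were those of Glra2 (−2.71, SE 0.68), Syt4 (−1.91, SE 0.57), Grin2b (−1.78, SE 0.52), Gria1 (−1.60, SE 0.43), Syn2 (−1.58, SE 0.54) and Cplx1 (−1.56, SE 0.31). None reached an adjusted p under 0.05, the smallest being 0.122 from limma for Rab3c (−1.22, SE 0.19). At the other end were Rims2 (0.0032), Homer1 (−0.0057), Dlg4 (−0.049) and Nlgn2 (0.17). Leaving out knockout replicate 1 instead gave a median of 0.085, with 0 genes called lower. The direction of the germline median therefore rested on which knockout libraries were counted.

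**Figure D3:**
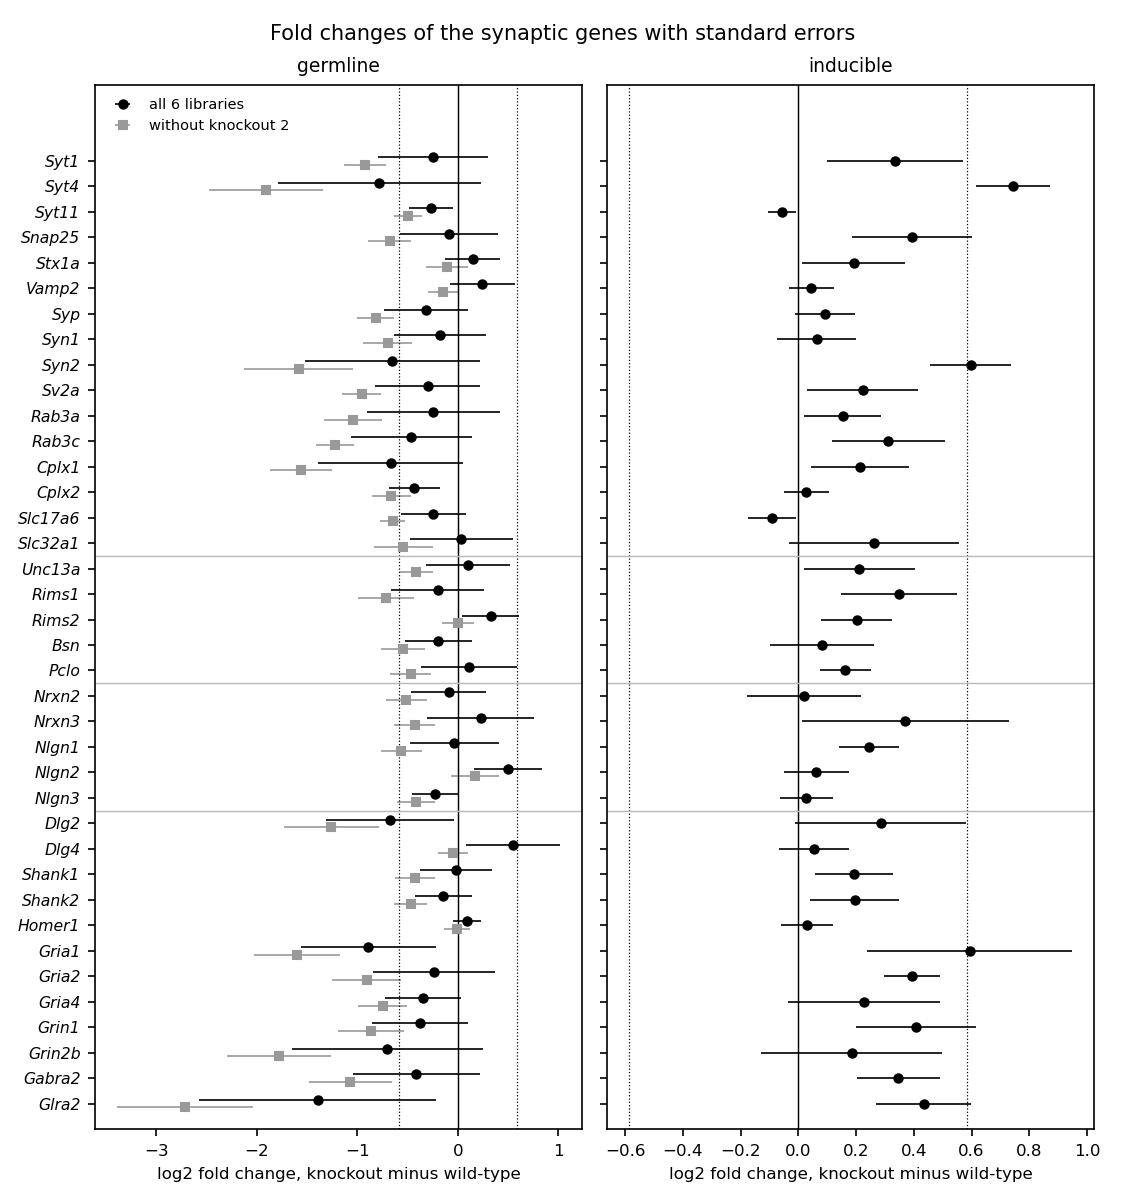
Log2 fold change, knockout minus wild-type, with its standard error for each synaptic gene, by role from top to bottom, with dotted lines at a fold change of 1.5 in either direction. On the left, grey squares (without germline knockout replicate 2) lie left of the black points (all 6 libraries) for all 38 genes. On the right, the inducible values are positive for 36 of 38 genes, and Syt4, Syn2 and Gria1 pass the dotted line, of which Gria1 was not called.

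Neuron markers moved with the synaptic genes. The median log2 deviation of 20 neuron markers from the wild-type mean was −0.87, 0.81 and −0.69 in germline knockouts 1 to 3, and their summed level ran from 70350 to 204773 normalized counts in the knockouts against 111304 to 136506 in the wild-type. Medians of the 16 progenitor markers were 0.21, 0.11 and 0.039 in the same libraries. Of these 16, 1 was called lower and 0 higher, against 0.667% and 2.07% of all genes tested. The 8 pallium identity markers, genes of the dorsal forebrain, gave −0.95, 1.18 and −0.53, and the 9 diencephalon markers tested gave 2.82, −0.0048 and 1.31. None of the neuron, progenitor or pallium markers was at 0 in any library. Of 20 hypoxia and glycolysis genes, 16 were called higher in the germline knockouts, against 2.07% of all genes tested. Their medians were 2.08, 2.54 and 0.21 in knockouts 1 to 3. The list was chosen with earlier results of these data known. It holds genes that the study lists as up-regulated in these knockouts, such as Eno1, Ldha and Aldoa, so the count is no independent result. In tissue RNA, fewer neurons and less synaptic RNA per neuron cannot be told apart. The part of these markers in the synaptic values was not tested beyond a fit with the mean neuron marker level as a covariate, in which the median of the 38 genes was 0.0043, 0 genes were lower and 2, Nlgn2 and Dlg4, were higher, where 4.91% of all genes were lower and 4.30% higher.

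**Figure D4:**
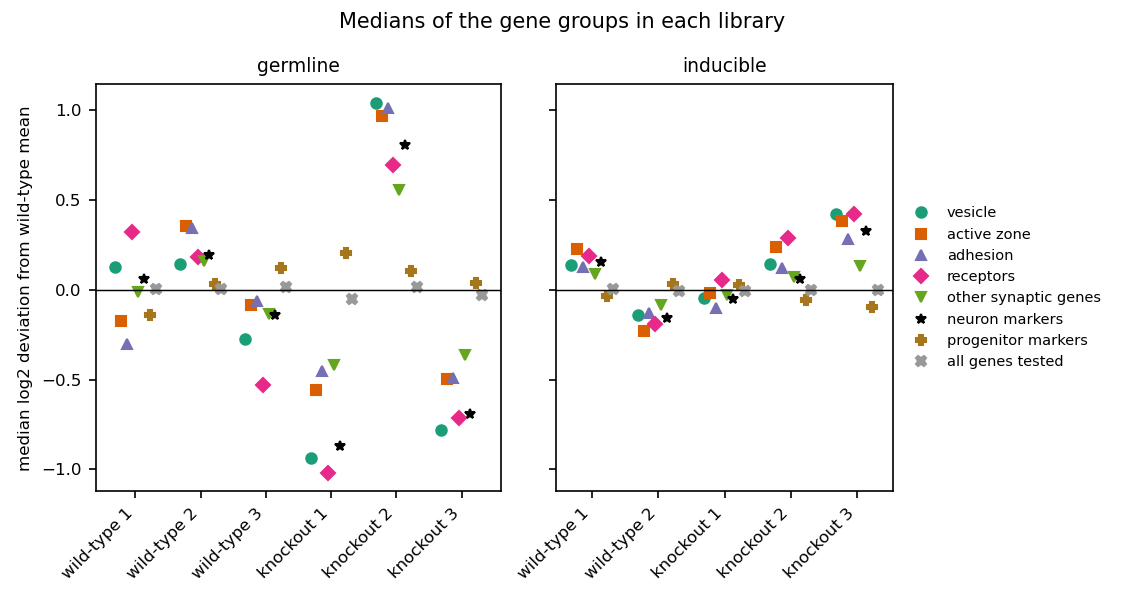
Median log2 deviation from the wild-type mean of the 4 synaptic groups, the other synaptic genes, the neuron and progenitor markers and all genes tested, in each library of the germline (left) and inducible (right) comparison. In the germline knockouts the medians of the synaptic groups and neuron markers lie low in replicates 1 and 3 and high in replicate 2. The progenitor marker medians stay between 0.039 and 0.21 in the knockouts.

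In the inducible comparison Syt4 and Syn2 were called higher, and the groups overlapped for most of the other synaptic genes. At both thresholds 2 of 38 genes were higher and 0 lower, where 0.802% of all 14081 genes tested were higher and 0.49% lower. The study itself lists Syt4 among the up-regulated genes of these knockouts. The synaptic genes were also chosen with earlier results of these data known, so this count is no independent result. With no fold threshold 6 of 38 passed the unadjusted P, as did 6.01% of all genes tested. The smallest limma adjusted p was 0.343, so 0 of 38 passed after adjustment, against 0.0355% of the genes tested. Across the 38 genes the log2 fold change had a median of 0.21, with 36 genes positive and only Syt11 and Slc17a6 negative, beside −0.0019 over all genes tested. Group medians were 0.20 for vesicle, 0.20 for active zone, 0.063 for adhesion and 0.26 for receptor and scaffold genes. For 7 genes every knockout lay above both wild-type libraries, against 10.4% of all genes tested, and for 1 gene, Syt11, below them, against 12.2%. The count of 2 was 9 without wild-type replicate 1 (1.78% of all genes then tested), 1 without wild-type replicate 2 and 1 without knockout replicate 3, and the median was 0.37 and 0.022 without wild-type replicates 1 and 2. Without wild-type replicate 2, 22 genes were positive and 16 negative.

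Syt4 held 445 and 342 normalized counts in wild-type against 652, 713 and 604 in knockout libraries. Every knockout exceeded both wild-type libraries (log2 fold change 0.74, SE 0.13, limma adjusted p = 0.343). Without wild-type replicate 2 the log2 fold change was 0.56, under the fold threshold. The gene lies 3.18 Mb from Kif20a on the same chromosome, and 14.7% of its exon bases are shared with Gm16871. The part of either in the values of Syt4 was not tested, here or in the germline comparison. Syn2 stood at 149.8 and 162 against 206, 239 and 267, again without overlap (0.60, SE 0.14, limma adjusted p = 0.669). Its value lay just past the fold threshold and fell under it without wild-type replicate 1 (0.54), without knockout replicate 3 (0.51) and with the neuron marker level as a covariate (0.56). Cplx1 stood at 139 and 112 against 134, 134 and 169, with overlap (0.21, SE 0.17). The other 13 vesicle genes had log2 fold changes between −0.091 for Slc17a6 and 0.39 for Snap25, the SNARE protein of the presynaptic membrane. Slc32a1 (0.26, SE 0.29) had the same order of libraries as the 14 ventral telencephalon markers. Their median deviations were 0.39 and −0.39 for wild-type, and −0.16, 0.047 and 0.73 for knockout libraries. The medians of the neuron and endothelium markers had that order too. In germline knockout replicate 2, Slc32a1 stood at 321 normalized counts against 101 to 172 in the germline wild-type libraries. The ventral telencephalon marker median of that library was 0.047.

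No inducible active zone gene passed the unadjusted P, and all 5 values were positive. Rims1 stood at 95.6 and 69.5 normalized counts in wild-type against 91.3, 102 and 121 in knockout libraries (log2 fold change 0.35, SE 0.20). Unc13a stood at 1012 and 729 against 782, 1084 and 1161 (0.21, SE 0.19). Rims2 stood at 1052 and 916 against 969, 1159 and 1284 (0.20, SE 0.12). All 5 active zone genes were highest in knockout replicate 3 and higher in wild-type replicate 1 than in replicate 2. The groups overlapped for each, since at least 1 knockout lay below wild-type replicate 1. Of the adhesion genes, Nrxn3 stood at 834 and 407 against 532, 728 and 1103 (0.37, SE 0.36). Its wild-type libraries differed from each other by 2.05-fold, more than the groups did (1.29-fold). Nlgn1 stood at 379 and 386 against 440.3, 507 and 417, with every knockout above both wild-type libraries (0.24, SE 0.10, limma adjusted p = 0.825). Nlgn2 stood at 4333 and 3878 against 3825, 4114 and 4990.2, with overlap (0.063, SE 0.11). Nrxn2 and Nlgn3 lay at 0.019 and 0.028.

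The inducible receptor and scaffold genes were all positive, from 0.032 for Homer1 to 0.59 for Gria1. Gria1 stood at 442 and 198 normalized counts in wild-type against 316, 505 and 559.6 in knockout libraries, and its groups overlapped (SE 0.35, limma adjusted p = 0.863). It passed both thresholds without wild-type replicate 1 (1.17) and without knockout replicate 1 (0.84). Glra2 stood at 101 and 81.2 against 121, 135 and 113, without overlap (0.43, SE 0.16, limma adjusted p = 0.825). Groups also did not overlap for Gria2 (0.39, SE 0.097, limma adjusted p = 0.727), Gabra2, a GABA-A receptor subunit (0.35, SE 0.14), and Grin1 (0.41, SE 0.21). Of these, Grin1 alone did not pass the unadjusted P. Glra2 is 1 of 4 of the 38 genes on the X chromosome, with Syp, Syn1 and Nlgn3, and the part of the difference in Y-linked RNA between these groups in its value was not tested. The neuron markers had medians of 0.16 and −0.16 for wild-type, and −0.050, 0.061 and 0.33 for knockout libraries. Those of the 38 synaptic genes were 0.15 and −0.15, and −0.031, 0.20 and 0.41. Knockout replicate 3 was the highest library for 28 of 38 genes (21.1% of all genes tested) and lay above both wild-type libraries for 34, whereas knockout replicate 1 did so for 9.

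**Figure D5:**
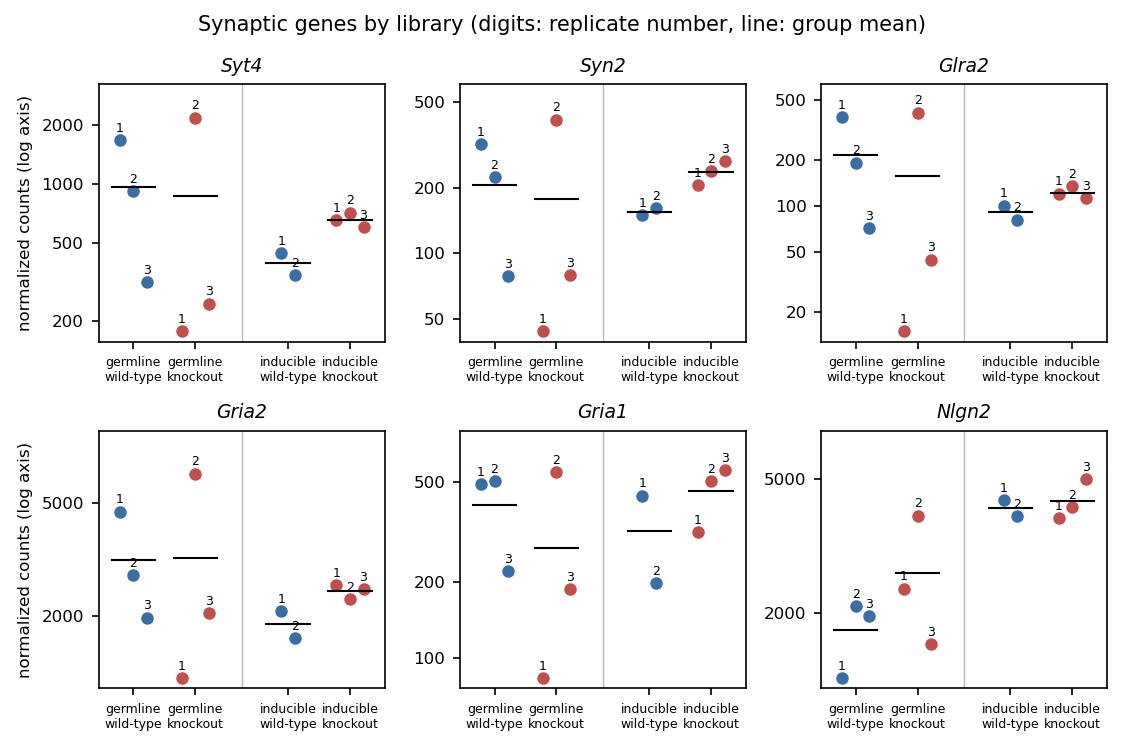
Normalized counts (log axis) of 6 synaptic genes in every library, with replicate numbers and group means as lines; Gria2 was added to the plot after its values had been seen. The comparisons on either side of the grey line were normalized apart and their levels are not compared. For Syt4, Syn2, Glra2 and Gria2 the 3 inducible knockout points lie above both inducible wild-type points, while in the germline comparison both the lowest and the highest point are knockouts.

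The values of single genes in both comparisons, which share no libraries, can be set side by side. Syt4 had a log2 fold change of −0.78 (SE 1.01) in the germline and 0.74 (SE 0.13) in the inducible knockouts. Syn2 had −0.65 (SE 0.87) and 0.60 (SE 0.14), Gria1 had −0.89 (SE 0.67) and 0.59 (SE 0.35), and Glra2 had −1.39 (SE 1.18) and 0.43 (SE 0.16). Other genes were positive in both, such as Nlgn2 (0.50 and 0.063), Rims2 (0.32 and 0.20), Nrxn3 (0.23 and 0.37) and Dlg4 (0.55 and 0.053). The germline standard errors were about as large as most of these values, and the difference between comparisons was not tested, because the tables were normalized separately.

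Among other genes of the synapse no gene was called in either comparison. Of 128 other synaptic genes, 127 were listed and 120 were tested in the germline comparison. By limma 0 were called lower and 0 higher, against 0.667% and 2.07% of all genes tested. An unadjusted P no greater than 0.05 was found for 1, against 5.39%. In the inducible comparison 119 were tested and 0 were called, against 0.49% lower and 0.802% higher of all genes tested. The unadjusted P was passed by 4, against 6.01%. The median log2 fold changes of the other synaptic genes were −0.085 and 0.064. By library, their germline medians in knockouts 1 to 3 were −0.42, 0.56 and −0.36, in the same order as the 38 genes and closer to 0. By role, the median germline fold change was −0.12 for other vesicle, 0.078 for other active zone, −0.10 for other adhesion and −0.15 for other receptor genes.

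The genes outside all lists whose log2 levels over the 6 germline libraries were most like the mean of the 38 genes were Ralgps1, Nr1d1, Rap1gap, 2010107G23Rik and Plxna2, with Pearson correlations of 0.997 for each. These were the highest among the tested genes outside all lists, and they share the libraries and their order. Genes of the lists were not ranked. Plxna2, a semaphorin receptor, for example stood at 3744, 3729 and 2539 normalized counts in wild-type against 1517, 7026 and 1866 in knockout libraries.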

How the data were processed

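Poly(A) RNA-seq libraries were grouped by the sample labels into 4 groups. Per the labels and the study's methods, the authors used TopHat (version 1.2.0 in the submitters' processing notes) to align reads to mm9, counted reads on RefSeq exons and normalized the counts in edgeR by the trimmed mean of M-values. The signal deposited by the authors is a table of normalized counts for each comparison, equalized between its libraries, not whole numbers, and neither divided by gene length nor on a log scale. Depth cannot be read from it, and a shift common to most genes would be removed by such scaling. Unused per-sample columns numbered 0. Replicate numbers are those of the deposited columns.

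Each table was fitted alone with limma 3.58.1 under R 4.3.3 (lmFit, eBayes with a trend, two-sided), on log2(normalized count + 1), over genes with a mean of at least 10. Fold changes on this scale understate the change of low genes. Calls used the thresholds of the study, a fold change of 1.5 and an unadjusted P of 0.05. Benjamini-Hochberg adjustment ran over all genes tested. The test was checked on simulated data in which no library was set apart, so the check does not cover the spread of the germline knockouts.

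The synaptic genes, the marker and other gene lists and the tests were chosen with earlier results of these data known. Values in every library are given for genes past both thresholds and, by role, for the 2 genes with the largest change in each comparison. Alternatives were other pseudocounts, other filters, quantile normalization, array weights, a replicate block, a neuron marker covariate and leaving out each library. Gene positions, exon lengths and RE1 matches came from the mm9 genome with GENCODE annotation. Whether counting used strand is not given in the sources used here, so genes that share exon bases with a neighbour are uncertain.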

Additional observations from a re-analysis of the deposited data

How the results depend on the processing

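Germline calls depended on how the knockout libraries were weighted. With array weights 11 of the 38 genes were lower (3.47% of all genes), and leaving out single libraries gave 0 to 21 lower and 0 to 1 higher, the 21 without knockout replicate 2 (4.58% of all genes) and the 1 (Nlgn2) without knockout replicate 3 (4.43% of all genes). With the neuron marker level as a covariate 2 genes were higher (4.30% of all genes). The germline median was 0.0043 with that covariate and ran from −0.67 to 0.085 when single libraries were left out. The inducible count of 2 higher genes became 1 with the replicate block, 1 with the neuron marker covariate, and 1 to 9 when single libraries were left out, with 9 when wild-type replicate 1 was dropped and 1 when wild-type replicate 2 or knockout replicate 3 was. Leaving out an inducible wild-type library leaves 1, which is then assumed to vary like the knockouts. The cause of these changes was not tested. Other pseudocounts, other filters and quantile normalization left the counts of called synaptic genes at 0 for the germline and 2 for the inducible comparison.

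The study collected wild-type and mutant cortices from littermates, but which libraries share a litter is not given in the sources used here. Whether same-numbered wild-type and knockout libraries are pairs is therefore unknown. Their deviations correlated at −0.12, 0.31 and 0.25 for the germline and at −0.35 and −0.051 for the inducible comparison. With the replicate block, 0 synaptic genes were called lower in the germline comparison. In the inducible comparison replicate 3 has only a knockout library, which the block absorbs. The block there gave the same fold changes as leaving out knockout replicate 3, so it is no separate check. The log2 fold change of Syn2 was then 0.51, under the fold threshold. Depth is unknown for these values, and 3 against 3 or 2 against 3 libraries limit what can be detected.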
